A study of Mus musculus with 4 samples.

Results

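The late genes of neutrophil maturation were read in KL cells, myeloid progenitors of mouse bone marrow that carry c-Kit and lack both Sca-1 and lineage antigens. The group was chosen by name and holds 10 genes, *Ltf*, *Camp*, *Ngp*, *Lcn2*, *S100a8*, *S100a9*, *Fcnb*, *Lyz2*, *Cybb* and *Itgam*, and all 10 had a row among the 12067 genes of the count table. The 4 libraries came from donor-derived (CD45.2+) KL cells of *Ptprca* recipients, a C57BL/6 congenic strain that carries CD45.1, sorted 20 weeks after transplantation of whole bone marrow. The BcorΔE9-10 group (2 libraries) had the genotype scl-Cre-ERT +; Bcorfl/y, in which tamoxifen deletes exons 9 and 10 of the X-linked *Bcor* gene. The BcorWT group (2 libraries) had the genotype Bcorfl/y and thus carried the same floxed allele without the Cre. The Cre is driven by a stem cell enhancer of *Scl* (*Tal1*), so deletion takes place in stem cells and is inherited by the progenitors. Donors of both groups had been dosed with tamoxifen at 3 to 6 months of age, and female recipients were irradiated with 5.5 Gy beforehand. The sources used here do not say whether a library came from 1 recipient or several, so the p-values measure only the spread between these libraries.

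Neutrophils form their granules in a fixed order as they mature. Primary granules, filled with myeloperoxidase and serine proteases, are made at the promyelocyte stage, and secondary granules follow at the myelocyte and metamyelocyte stages. Secondary granule proteins such as lactoferrin, cathelicidin and lipocalin 2 starve microbes of iron or damage their membranes, and their genes are well-known targets of the transcription factor C/EBPε. The calprotectin subunits S100a8 and S100a9 accumulate in the cytosol over the same stages, while the NADPH oxidase and the integrin CD11b equip the later cell for killing and adhesion. Lineage-positive cells were depleted before the sort. CD11b, the product of *Itgam*, and Gr-1 are usual antigens of such a depletion.

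Totals ranged from 3825289.5 to 6253100.5 counts per library, and the level that 3 counts can show was between 0.489 and 0.876 counts per 1000000 (CPM) after scaling by edgeR's TMM factors. *Gm42418*, an abundant rRNA-like transcript, took 16.3 and 14.3% of the counts in BcorΔE9-10 replicates 1 and 2 and 27.9 and 1.43% in BcorWT replicates 1 and 2, so the BcorWT libraries stood furthest apart in it. *Bcor* itself had between 58 and 113 counts, which does not check the genotype because the deleted exons are internal and Quant-seq reads lie at the 3′ end. The KL label was read against its markers. *Kit* lay between 29.4 and 61.9 CPM and *Cd34* between 41.7 and 64.2 CPM, whereas *Ly6a*, which encodes Sca-1, had 0 and 20 counts in BcorΔE9-10 and 13 and 6 counts in BcorWT. A count of 0 in BcorΔE9-10 replicate 1 allows up to 0.554 CPM. Of 12 T and NK cell markers 2 had a row in the table, and of 12 B cell markers 6 did. The measured T and NK cell markers summed to between 2.22 and 6.42 CPM and the B cell markers to between 61.0 and 86.7 CPM. Of the latter *Ighm* lay between 35.0 and 52.3 CPM, a level like that of *Kit*.

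Several of the genes are neighbours in the genome, and positions are given on GRCm38 (mm10). *Camp* (chr9:109847379-109849617), *Ngp* (chr9:110419747-110423012) and *Ltf* (chr9:111019271-111042767) lie within a short stretch of chromosome 9, with 0.570 Mb between *Camp* and *Ngp* and 0.596 Mb between *Ngp* and *Ltf*. *S100a8* (chr3:90668978-90670035) and *S100a9* (chr3:90692632-90695721) are 22597 bases apart on opposite strands of chromosome 3. *Lcn2* (chr2:32384633-32388252) and *Fcnb* (chr2:28076378-28084885) lie on chromosome 2, *Lyz2* (chr10:117277331-117282321) on chromosome 10, *Itgam* (chr7:128062640-128118491) on chromosome 7 and *Cybb* (chrX:9435252-9487771) on the X chromosome, as *Bcor* does. *Itgam* overlaps *Gm49368* on the same strand and the other 9 overlap no annotated gene. The last 300 bases of each transcript were compared with all other transcripts, since that is where the reads fall. Only *Lyz2* had a close copy, its neighbour *Lyz1*, at 96.6% identity over 296 bases, so counts of *Lyz2* and *Lyz1* could have been exchanged.

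The RefSeq promoters of 6 genes (GRCm38.p6, 250 bases before to 50 after the start site, shown 5′ to 3′ in the direction of transcription) are printed because these are the genes whose levels moved together or apart between libraries. Capitals mark each match of 8 letters to the C/EBP motif TTGCNNAA and each match of 6 letters to the PU.1 motif GAGGAA, on either strand (TTNNGCAA and TTCCTC in the other orientation). The motifs do not overlap in these windows.
*Ngp* (chr9:110419558-110419857, plus strand): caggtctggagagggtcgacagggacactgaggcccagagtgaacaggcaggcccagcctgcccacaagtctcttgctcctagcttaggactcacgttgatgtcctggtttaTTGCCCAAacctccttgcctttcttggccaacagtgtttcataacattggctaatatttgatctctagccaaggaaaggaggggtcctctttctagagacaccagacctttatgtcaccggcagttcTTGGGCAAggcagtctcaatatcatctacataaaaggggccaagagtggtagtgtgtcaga
*Ltf* (chr9:111019042-111019341, plus strand): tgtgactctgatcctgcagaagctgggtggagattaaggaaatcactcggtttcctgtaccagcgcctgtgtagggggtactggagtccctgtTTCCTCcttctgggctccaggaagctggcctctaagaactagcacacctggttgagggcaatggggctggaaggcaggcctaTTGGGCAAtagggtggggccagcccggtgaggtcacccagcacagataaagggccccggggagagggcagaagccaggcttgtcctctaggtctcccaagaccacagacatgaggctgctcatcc
*Lcn2* (chr2:32387690-32387989, minus strand): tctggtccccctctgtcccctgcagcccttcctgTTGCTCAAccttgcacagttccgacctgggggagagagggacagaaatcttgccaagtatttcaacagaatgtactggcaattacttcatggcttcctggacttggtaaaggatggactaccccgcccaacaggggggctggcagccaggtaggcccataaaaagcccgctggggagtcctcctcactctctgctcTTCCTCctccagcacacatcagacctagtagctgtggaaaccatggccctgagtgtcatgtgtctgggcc
*Camp* (chr9:109849407-109849706, minus strand): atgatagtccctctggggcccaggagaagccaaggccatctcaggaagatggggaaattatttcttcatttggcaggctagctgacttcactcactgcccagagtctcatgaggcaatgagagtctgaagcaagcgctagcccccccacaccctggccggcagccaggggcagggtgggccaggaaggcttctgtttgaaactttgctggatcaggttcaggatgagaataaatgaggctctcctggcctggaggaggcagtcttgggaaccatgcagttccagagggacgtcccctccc
*S100a8* (chr3:90668821-90669120, plus strand): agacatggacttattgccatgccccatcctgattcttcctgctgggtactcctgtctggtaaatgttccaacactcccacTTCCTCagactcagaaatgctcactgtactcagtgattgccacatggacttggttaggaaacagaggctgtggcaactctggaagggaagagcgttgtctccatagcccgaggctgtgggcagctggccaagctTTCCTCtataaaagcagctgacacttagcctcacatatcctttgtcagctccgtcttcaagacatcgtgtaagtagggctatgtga
*S100a9* (chr3:90695672-90695971, minus strand): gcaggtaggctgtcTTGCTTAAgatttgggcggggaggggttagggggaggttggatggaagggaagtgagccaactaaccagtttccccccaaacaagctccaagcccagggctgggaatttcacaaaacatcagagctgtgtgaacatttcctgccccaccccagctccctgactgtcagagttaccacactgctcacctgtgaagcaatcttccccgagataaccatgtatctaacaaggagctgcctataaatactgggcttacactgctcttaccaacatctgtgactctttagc

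All 10 promoters were found in RefSeq, and 5 of them held the C/EBP letters, against 10.8% of the 32851 promoters of that length. These were *Ngp* (starting at -138 and -11 from the start site), *Ltf* (-75), *Lcn2* (-216), *S100a9* (-236) and *Fcnb* (-235 and -123). The PU.1 letters were found in 5 promoters, those of *S100a8* (-170 and -36), *Lcn2* (-20), *Ltf* (-157), *Itgam* and *Cybb*, against 28.3% of all promoters. *Camp* and *Lyz2* held neither motif in this window, which says only that these letters are not there.

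The late genes spanned a wide range of levels, and *S100a8*, *S100a9*, *Ngp* and *Camp* were among the 10 genes with the highest counts in each library. Together the 10 late genes held 6.94 and 15.5% of all counts in BcorΔE9-10 replicates 1 and 2 and 8.61 and 15.6% in BcorWT replicates 1 and 2. By counts *S100a8* had rank 2 and *S100a9* rank 3 in each of the 4 libraries. *Ngp* had rank 4 in 3 libraries and rank 1 in BcorWT replicate 2, and *Camp* lay between rank 5 and rank 7. The others ranked lower, with *Ltf* between 12 and 96, *Lyz2* between 24 and 105, *Lcn2* between 35 and 326, *Cybb* between 105 and 351 and *Fcnb* between 214 and 319. *Itgam* was the least abundant, with 371 to 975 counts. Quant-seq counts each transcript at its 3′ end, so the CPM values were not divided by gene length. Because these are bulk libraries, a larger number of maturing cells and more of a transcript in each cell cannot be told apart.

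**Figure D1:**
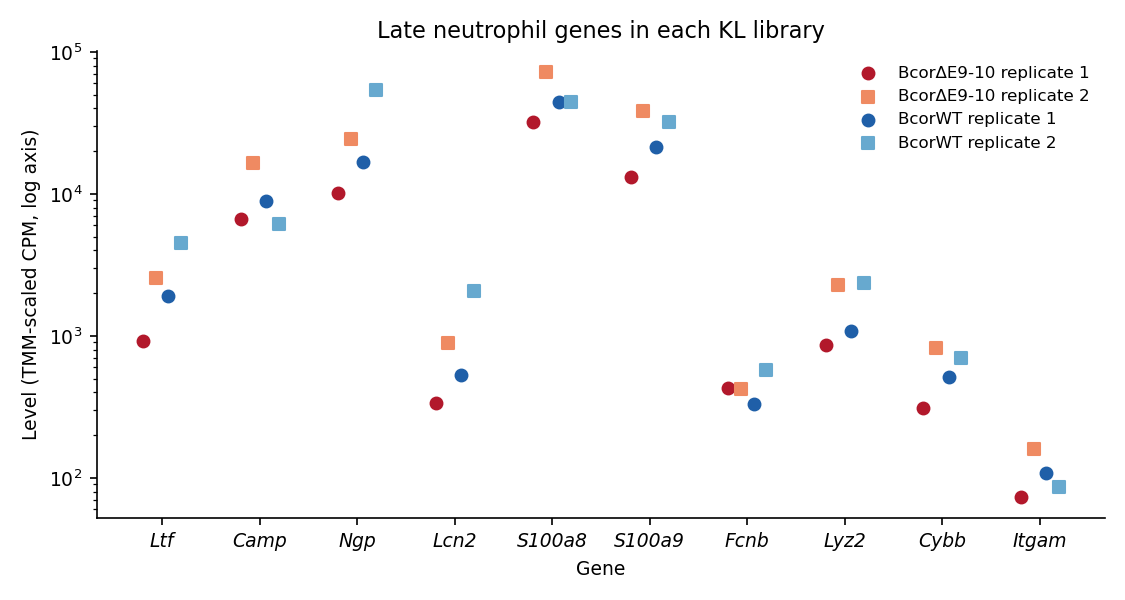
Level of each of the 10 late neutrophil genes (x axis) in TMM-scaled CPM on a log axis (y axis), with 1 point for each of the 2 BcorΔE9-10 (red and orange) and 2 BcorWT (blue) libraries. The points of the 2 genotypes overlap for all 10 genes, and BcorΔE9-10 replicate 1 is lowest for 8 of them.

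Between genotypes, the late genes gave no call. At an adjusted p under 0.05 in edgeR's quasi-likelihood test 0 of the 10 genes were called, where 2 of the 12067 genes (0.0166%) were called over the whole table. At an unadjusted p under 0.05 there were also 0 of 10 (0 with limma-voom and 0 with DESeq2), against 4.42% of all genes. With the replicate numbers as a block in edgeR it was 3 of 10, beside 464 of 12067 genes. The groups overlapped for every one of the 10, whereas 16.8% of all genes lay wholly higher and 17.1% wholly lower in BcorΔE9-10. The median log2 fold change of the 10 (BcorΔE9-10 over BcorWT) was -0.09, beside -0.03 over all genes tested, with 3 fitted higher and 7 fitted lower. Leaving out 1 library moved this median to -0.97 without BcorΔE9-10 replicate 2 and to 0.43 without BcorΔE9-10 replicate 1. With 3 libraries, groups fail to overlap for most genes of the table. They did not overlap for 5 of the 10 without BcorΔE9-10 replicate 1 (58.8% of all genes) and for 8 without BcorΔE9-10 replicate 2 (58.2% of all genes). They did not overlap for 6 without BcorWT replicate 1 (81.5% of all genes) and for 1 without BcorWT replicate 2 (69.2% of all genes).

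**Figure D2:**
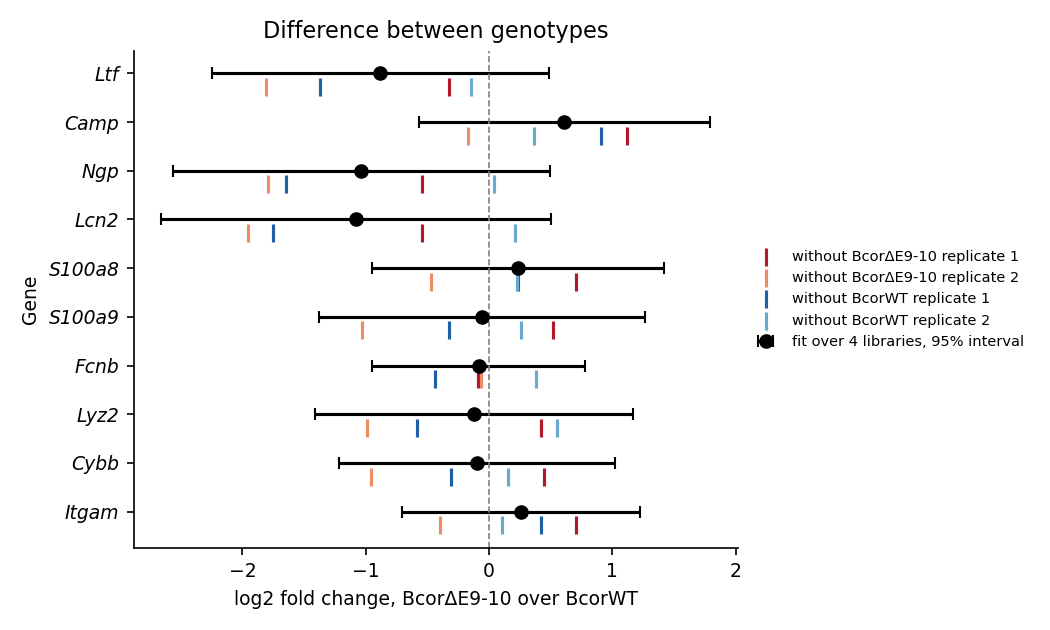
Log2 fold change of BcorΔE9-10 over BcorWT (x axis) for each late gene (y axis), as edgeR estimates with 95% intervals (black), with the estimates after leaving out each library as coloured ticks. Every interval includes 0, and 9 of the 10 genes have a tick on the other side of 0.

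The secondary granule genes included the lowest p-values of the group, and their fitted changes went both ways. *Ngp*, neutrophilic granule protein, a relative of the cathelicidins, was at 10206 and 24341 CPM in BcorΔE9-10 and at 16822 and 54004 CPM in BcorWT, in the order of the replicates. BcorWT replicate 2 was thus the highest and BcorΔE9-10 replicate 1 the lowest. The log2 fold change was -1.04 (standard error 0.66, 95% interval -2.56 to 0.49, edgeR adjusted p = 0.945), and it was 0.0378 without BcorWT replicate 2.

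*Ltf*, which encodes the iron-binding protein lactoferrin, was at 914 and 2561 CPM in BcorΔE9-10 and at 1918 and 4483 CPM in BcorWT. The order of the libraries was the same as for *Ngp*. Its log2 fold change was -0.88 (standard error 0.59, 95% interval -2.25 to 0.48, edgeR adjusted p = 0.945) and ranged from -1.81 without BcorΔE9-10 replicate 2 to -0.14 without BcorWT replicate 2. *Lcn2*, lipocalin 2, which captures bacterial siderophores, was at 334 and 888 CPM in BcorΔE9-10 and at 528 and 2056 CPM in BcorWT. It again had its highest value in BcorWT replicate 2, 6.15-fold above BcorΔE9-10 replicate 1, the widest range of the 10 genes. The log2 fold change of *Lcn2* was -1.08 (standard error 0.68, 95% interval -2.66 to 0.50, edgeR adjusted p = 0.945) and was 0.21 without BcorWT replicate 2.

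*Camp*, the precursor of the mouse cathelicidin CRAMP, behaved otherwise. It was at 6677 and 16381 CPM in BcorΔE9-10 and at 8972 and 6123 CPM in BcorWT. BcorΔE9-10 replicate 2 was the highest library, and BcorWT replicate 2, the highest for *Ngp*, *Ltf* and *Lcn2*, was the lowest. The log2 fold change was 0.61 (standard error 0.51, 95% interval -0.57 to 1.79, edgeR adjusted p = 0.945), and it was -0.17 without BcorΔE9-10 replicate 2. *Fcnb*, ficolin B, a lectin that recognises microbial sugars, was at 432 and 425 CPM in BcorΔE9-10 and at 330 and 578 CPM in BcorWT. The BcorΔE9-10 libraries lay between the BcorWT libraries. Its fold between the highest and lowest library, 1.75, was the smallest of the 10 genes, and its log2 fold change of -0.08 (95% interval -0.95 to 0.78) was 0.38 without BcorWT replicate 2.

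The calprotectin genes were the most abundant of the group in 3 of the 4 libraries, and their fitted changes were small. *S100a8* was at 31873 and 72238 CPM in BcorΔE9-10, a mean of 52056 ± 28542 (SD, n = 2), and at 44423 and 44112 CPM in BcorWT, a mean of 44267 ± 219 (SD, n = 2). The BcorWT libraries were almost equal and lay between those of BcorΔE9-10. The log2 fold change was 0.23 (standard error 0.51, 95% interval -0.95 to 1.42, edgeR adjusted p = 0.973), and -0.47 without BcorΔE9-10 replicate 2. *S100a9* was at 13145 and 38379 CPM in BcorΔE9-10 and at 21491 and 32200 CPM in BcorWT. Its BcorWT libraries also lay between those of BcorΔE9-10. The log2 fold change of *S100a9* was -0.06 (standard error 0.57, 95% interval -1.38 to 1.26, edgeR adjusted p = 0.994) and was 0.52 without BcorΔE9-10 replicate 1 and 0.26 without BcorWT replicate 2.

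The remaining late genes encode an antibacterial enzyme, an oxidase and an adhesion receptor. *Lyz2*, the lysozyme of myeloid cells, was at 865 and 2291 CPM in BcorΔE9-10 and at 1074 and 2355 CPM in BcorWT (log2 fold change -0.12, 95% interval -1.41 to 1.17). *Cybb*, the gp91phox subunit of the NADPH oxidase, was at 311 and 821 CPM in BcorΔE9-10 and at 509 and 699 CPM in BcorWT (log2 fold change -0.09, 95% interval -1.21 to 1.02). *Itgam* was at 73.7 and 159 CPM in BcorΔE9-10 and at 108 and 86.8 CPM in BcorWT (log2 fold change 0.26, 95% interval -0.71 to 1.22). For all 3 genes the lowest library was BcorΔE9-10 replicate 1. Without that library the estimates were 0.42 for *Lyz2* and 0.44 for *Cybb*, and without BcorWT replicate 2 they were 0.55 and 0.15. The estimate for *Itgam* was -0.40 without BcorΔE9-10 replicate 2. These intervals span changes in either direction, so they do not show that the levels were equal.

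Within a genotype, many of the late genes differed between libraries by more than the median gene did, 9 of 10 in BcorΔE9-10 and 6 of 10 in BcorWT. In BcorΔE9-10, 9 of the 10 genes were higher in replicate 2 than in replicate 1, against 49.9% of all genes, and *Fcnb* was the exception. The 9 differences were alike in size, from 1.10 (*Itgam*) to 1.55 (*S100a9*) on the log2 CPM scale. The median absolute difference was 1.35 over the 10 genes, and 0.31 over all genes. In BcorWT, 7 of the 10 were higher in replicate 2, against 48.2% of all genes. Here the differences were spread out, from -0.55 (*Camp*) and -0.32 (*Itgam*) through -0.01 (*S100a8*) to 1.68 (*Ngp*) and 1.96 (*Lcn2*). Their median absolute difference was 0.70, beside 0.57 over all genes. In all 10 genes at least 1 within-genotype difference was larger than the difference between the genotype means, and in 8 both were, where these shares over all genes were 79.6 and 39.2%. The replicate numbers do not tie a BcorΔE9-10 library to a BcorWT library.

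**Figure D3:**
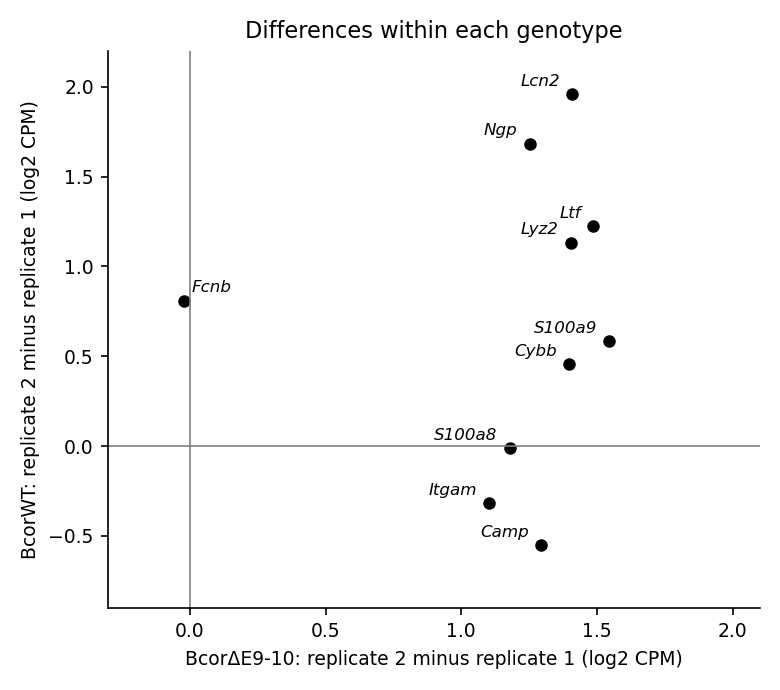
Difference between the replicates of each genotype for the 10 late genes, in log2 CPM, with BcorΔE9-10 on the x axis and BcorWT on the y axis. In BcorΔE9-10 all genes but *Fcnb* sit between 1.10 and 1.55, and in BcorWT they are spread from -0.55 to 1.96.

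Ratios of 2 genes within a library do not depend on how the libraries are scaled, and the pairs below were chosen after the levels were seen. The *Ltf* count per *Ngp* count was 0.0895 and 0.105 in BcorΔE9-10 and 0.114 and 0.0830 in BcorWT. The *Lcn2* count per *Ngp* count was 0.0327 and 0.0365 in BcorΔE9-10 and 0.0314 and 0.0381 in BcorWT. Both ratios thus changed little while *Ngp* itself changed 5.29-fold between the lowest and the highest library. *Camp* kept its ratio to *Ngp* in 3 libraries, at 0.654 and 0.673 in BcorΔE9-10 and 0.533 in BcorWT replicate 1, and stood at 0.113 in BcorWT replicate 2. *Ngp* per *S100a8* count was 0.320, 0.337 and 0.379 in the same 3 libraries and 1.22 in BcorWT replicate 2. The share of the late genes' counts held by *S100a8* and *S100a9* together was 69.4, 69.8 and 68.5% in those 3 libraries and 52.0% in BcorWT replicate 2, where *Ngp* held 36.8% and *Camp* 4.17%. The *S100a8* count per *S100a9* count was 2.42 and 1.88 in BcorΔE9-10 and 2.07 and 1.37 in BcorWT. The genotypes overlapped in it, and in *Ltf* and *Lcn2* per *Ngp* count. They lay apart in *Camp* per *Ngp* count, *Ngp* per *S100a8* count and the joint share of *S100a8* and *S100a9*. BcorWT replicate 2 was also the library with 1.43% of its counts on *Gm42418*, and the part of this in the ratios was not tested. With 2 libraries a genotype, the smallest p that an exact permutation test allows is 0.333 (two-sided), and no test was made of these ratios.

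**Figure D4:**
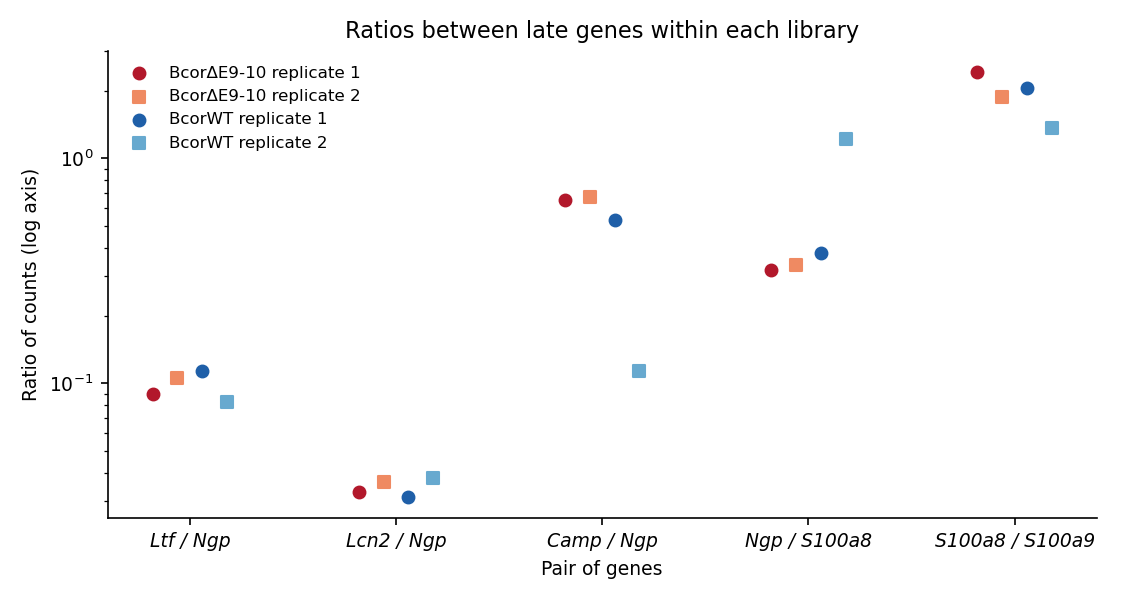
Ratio of the counts of 2 late genes (x axis) within each of the 4 libraries, on a log axis (y axis). *Ltf* and *Lcn2* stay in near-constant ratio to *Ngp*, whereas BcorWT replicate 2 departs for *Camp* per *Ngp* (0.113) and *Ngp* per *S100a8* (1.22).

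Most of the other secondary and tertiary granule genes were also higher in the replicate 2 libraries. Of 33 genes listed, 31 had a row, 0 were called (3 without BcorWT replicate 1, where 4.94% of all genes were called), and the median log2 fold change was -0.35 beside -0.03 over all genes, with 10 fitted higher and 21 lower. Their summed level was 5685 and 9033 CPM in BcorΔE9-10 and 6548 and 11352 CPM in BcorWT. In BcorΔE9-10, 28 of the 31 were higher in replicate 2, and in BcorWT 27 were. The median differences were 0.99 and 0.88 on the log2 CPM scale, against signed medians of 1.35 and 0.70 for the late genes. The groups did not overlap for 4 of them, 3 lower and 1 higher in BcorΔE9-10 by CPM, against 17.1 and 16.8% of all genes. Among the lower was *Mmp25*, a membrane metalloproteinase, which had between 8 and 33 counts. *Chil1*, a chitinase-like protein, had 14 and 82 counts in BcorΔE9-10 and 60 and 126 in BcorWT (log2 fold change -1.36, edgeR adjusted p = 0.945). *Slpi*, a protease inhibitor, was at 158 and 153 CPM against 193 and 399 CPM, with a log2 fold change of -0.93. *Cd177*, *Pglyrp1* and *Lyz1* were highest in BcorWT replicate 2, and were named after their values were seen. *Cd177*, a surface protein of secondary granules, was at 102 and 282 CPM against 185 and 763 CPM, and *Pglyrp1*, a peptidoglycan recognition protein, at 73.0 and 110 CPM against 63.1 and 492 CPM. *Lyz1*, the close copy of *Lyz2*, was at 42.7 and 92.3 CPM against 43.2 and 195 CPM.

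Partner and related genes were read beside *Cybb* and *Itgam*. Of 8 measured NADPH oxidase partners of *Cybb*, 0 were called, 1 was fitted higher and 7 lower, and the median log2 fold change was -0.46. *Cyba*, the p22phox subunit that pairs with gp91phox in the membrane, was at 227 and 314 CPM in BcorΔE9-10 and at 243 and 583 CPM in BcorWT. *Rap1a*, a small GTPase, was the 1 partner of 8 whose groups did not overlap, beside 16.8% higher and 17.1% lower of all genes. It was at 65.8 and 73.2 CPM in BcorΔE9-10 against 58.1 and 49.3 CPM (log2 fold change 0.37, edgeR adjusted p = 0.945). Of the 6 other measured β2 integrin and related genes, 0 were called and 0 had groups that did not overlap. These counts stand beside 0.0166% of all genes called, and 16.8% higher and 17.1% lower without overlap. *Itgb2*, the β chain that pairs with CD11b, was at 66.7 and 131 CPM in BcorΔE9-10 and at 71.0 and 153 CPM in BcorWT. The *Itgam* count per *Itgb2* count was 1.11, 1.21 and 1.53 in BcorΔE9-10 replicates 1 and 2 and BcorWT replicate 1, and 0.568 in BcorWT replicate 2. Of 6 other S100 genes, 0 were called, and *S100a6* was at 95.6 and 252 CPM in BcorΔE9-10 and at 206 and 452 CPM in BcorWT.

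The primary granule genes, made at the preceding stage, were set beside the late genes. Of 17 genes, 0 were called (1 without BcorWT replicate 1, where 4.94% of all genes were called), and the median log2 fold change was -0.18. Their summed level was 14438 and 12025 CPM in BcorΔE9-10 and 15282 and 14925 CPM in BcorWT, so the highest library was 1.27-fold above the lowest, whereas for the late genes it was 2.44-fold. The ratio of the late genes' sum to the primary granule sum was 4.49 and 13.2 in BcorΔE9-10 and 6.29 and 9.83 in BcorWT, and the genotypes overlapped. *Mpo*, myeloperoxidase, was at 6888 and 4284 CPM in BcorΔE9-10 and at 6692 and 5331 CPM in BcorWT. It was lower in replicate 2 in both genotypes, a pattern shown by 4 of the 17 genes with *Mpo* included. *Elane*, neutrophil elastase, was at 904 and 732 CPM in BcorΔE9-10 and at 656 and 2140 CPM in BcorWT, so it was higher in replicate 2 of BcorWT, where *Mpo* was lower. *Prtn3*, proteinase 3, was at 1993 and 2113 CPM in BcorΔE9-10 and at 2735 and 2548 CPM in BcorWT (log2 fold change -0.36, edgeR adjusted p = 0.945). *Gstm1*, *Hk3* and *Calr* were likewise lower by CPM in both BcorΔE9-10 libraries, with log2 fold changes of -0.73, -0.56 and -0.34, and *Srgn*, the granule proteoglycan, was higher in both at 0.26. The counts without overlap, 4 lower and 1 higher of 17, stand beside 17.1 and 16.8% of all genes.

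**Figure D5:**
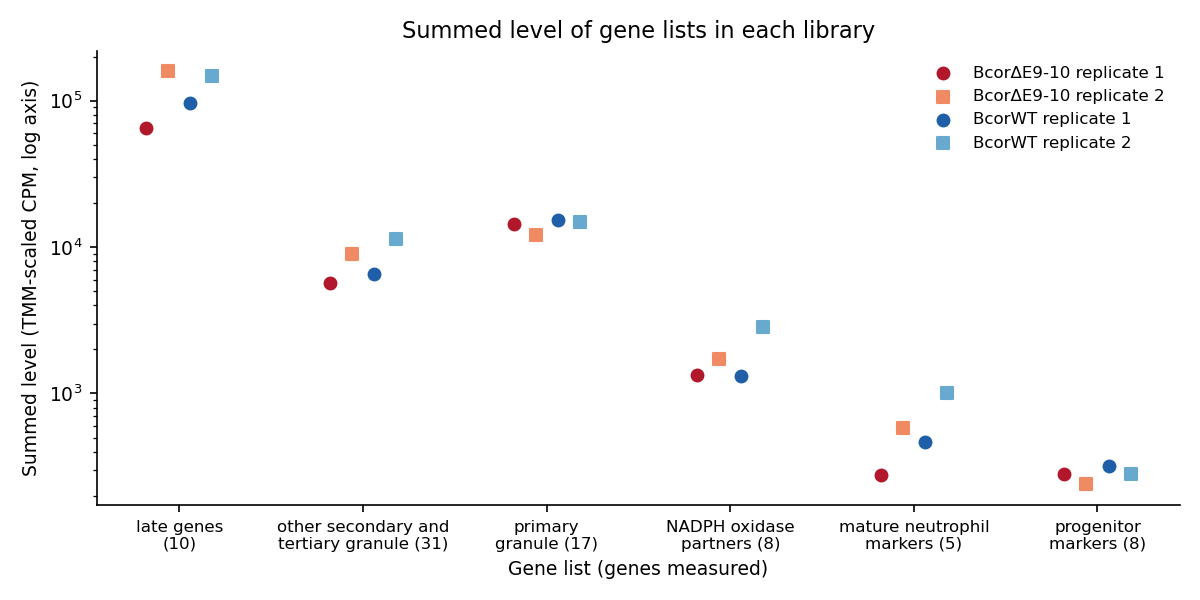
Summed TMM-scaled CPM (y axis, log scale) of 6 gene lists (x axis, with the number of genes measured) in the 4 libraries. The late genes and the mature neutrophil markers are lowest in BcorΔE9-10 replicate 1, while the primary granule genes stay between 12025 and 15282 CPM. The lists share genes: *Ly6g*, *Mmp9* and *Retnlg* are mature neutrophil markers and other secondary and tertiary granule genes. *Serpinb1a* is in both granule lists.

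Of 13 transcription factors that act on granule genes, 0 were called. *Cebpe*, the factor most tied to secondary granules, was at 122 and 232 CPM in BcorΔE9-10 and at 146 and 186 CPM in BcorWT, a log2 fold change of 0.09 (standard error 0.39, edgeR adjusted p = 0.986). *Gfi1*, a repressor needed for neutrophil maturation, was at 246 and 211 CPM in BcorΔE9-10 against 178 and 137 CPM (log2 fold change 0.54, edgeR adjusted p = 0.945). *Myb*, a progenitor factor, was at 400.3 and 307 CPM against 265 and 215 CPM, with a log2 fold change of 0.56. *E2f1*, a cell cycle factor, had a log2 fold change of -0.45. These were the 2 higher and 1 lower of 13 whose groups did not overlap, beside 16.8 and 17.1% of all genes. *Cebpa* and *Spi1* had their highest levels in BcorWT replicate 2, at 345 and 400 CPM, and between 121 and 196 CPM in the other libraries.

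Neutrophil receptor and maturation genes, 28 of which had a row, gave 0 calls and a median log2 fold change of -0.18. The groups did not overlap for 3 higher and 5 lower of the 28, beside 16.8 and 17.1% of all genes. *Clec4e*, a C-type lectin, was at 12.9 and 18.9 CPM in BcorΔE9-10 against 22.2 and 40.1 CPM (log2 fold change -0.97). *Cd14*, a co-receptor for lipopolysaccharide, was at 19.6 and 28.7 CPM against 16.6 and 11.1 CPM (log2 fold change 0.81). *G0s2* and *Cd33* had log2 fold changes of -0.67 and -0.52. *Alox5*, the 5-lipoxygenase gene, had an unadjusted p under 0.05 in edgeR with groups that overlapped, at 30.5 and 62.6 CPM in BcorΔE9-10 and 62.2 and 162 CPM in BcorWT.

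Markers of mature neutrophils and of other cells were read beside the late genes. The 5 mature neutrophil markers (*Ly6g*, *Cxcr2*, *Mmp9*, *Retnlg* and *Il1b*) summed to 278 and 581 CPM in BcorΔE9-10 and 466 and 1010 CPM in BcorWT. They are not a separate set. *Ly6g*, *Mmp9* and *Retnlg* are also among the other secondary and tertiary granule genes, and *Cxcr2* and *Il1b* among the receptor and maturation genes. In both genotypes 4 of the 5 were higher in replicate 2, and *Il1b* was lower. Of them *Cxcr2*, the chemokine receptor of circulating neutrophils, lay between 0.924 and 9.97 CPM and *Il1b* between 3.10 and 3.50 CPM, whereas *Mmp9*, gelatinase B, lay between 152 and 600 CPM and *Ly6g* between 39.6 and 174 CPM. None of the 5 was at 0 in a library. The part of mature neutrophils carried through the sort in the late genes' levels was not tested. Monocyte and macrophage markers (13 of 16 measured) summed to 1023 and 954 CPM in BcorΔE9-10 and 1269 and 2023 CPM in BcorWT, wholly lower in BcorΔE9-10, with 0 called. Eosinophil, basophil and mast cell markers (13 of 15) summed to 619 and 686 CPM in BcorΔE9-10 and 1020 and 1440 CPM in BcorWT, and erythroid markers (11 of 15) to 215 and 193 CPM against 81.8 and 94.1 CPM. All 3 sums lay apart between the genotypes, and so did those of the dendritic cell and the T and NK cell markers. The sums of the late genes, the megakaryocyte and platelet markers, the B cell markers and the progenitor markers overlapped. Over all genes, 16.8% lay wholly higher and 17.1% wholly lower in BcorΔE9-10. The part of these other cells in the late genes was not tested. *Xist*, expressed from the inactive X of female cells, had 13 and 24 counts in BcorΔE9-10 against 64 and 101 in BcorWT. Donors used for molecular assays were male while recipients were female, and the part of recipient cells in the late genes was not tested.

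The genes whose pattern over the 4 libraries lay nearest to the mean pattern of the late genes were sought among 8083 others with a mean of at least 10 CPM. The measure was the root mean square distance between centred log2 CPM values. The nearest were *4930438A08Rik* (0.07), *Creld2* (0.08), *6430548M08Rik* (0.09), *Ifitm6* (0.09) and *Tmem184a* (0.09). *Ifitm6*, an interferon-induced transmembrane gene, had 113 and 290 counts in BcorΔE9-10 and 116 and 248 counts in BcorWT. Of the late genes themselves *Cybb* (0.11) and *S100a9* (0.13) lay nearest to the mean pattern and *Camp* (0.59) and *Lcn2* (0.56) furthest. With 4 libraries, 297 genes lay within 0.3 of the pattern, so a place among the nearest rests on few values.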

How the data were processed

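The deposited table holds raw counts per gene of Quant-seq 3′ mRNA libraries, which the authors filtered on read quality, trimmed with cutadapt, mapped to mm10 (GRCm38) with HISAT2 and counted with subread. In BcorΔE9-10 replicate 2 and BcorWT replicate 1 the deposited values were handled as if the authors had written estimated counts, because 1 gene (*Gm4430*) is not whole there, and they were rounded. The annotation, the strand setting and the filter behind the table are not given in the sources used here.

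Counts were fitted with edgeR 4.0.16 (R 4.3.3): filterByExpr, which removed 0 genes, TMM scaling, the quasi-likelihood F test, a prior count of 0.125 and Benjamini-Hochberg adjustment over 12067 genes. The standard error is the log2 fold change divided by the square root of F. Plotted log2 CPM used a prior count of 2. Positions came from GENCODE M21, promoters from RefSeq, and 3′ ends were compared with blastn 2.17.0. The fits were tested on simulated data.

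Depth is 3825289.5 to 6253100.5 counts per library. No molecular identifiers are described, so the 3-count floors cover counting error only. Alternatives were DESeq2 size factors, DESeq2 1.42.0, limma-voom (limma 3.58.1), no filter on low genes, a minimum of 10 counts in each library, a prior count of 2, a replicate block, leaving out *Gm42418* and leaving out each library. Calls in 2 further lists were added after the data were seen. The genes and lists were chosen with earlier results of these data known. Named genes were all members, genes of each list past an adjusted p of 0.05 or up to 4 with the largest changes whose groups did not overlap at a mean of 10 CPM or more, *Bcor*, the highest genes of marker lists and the 5 most alike genes. Other genes were named after their values were seen. 1 gene that this rule names is not reported here.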

Additional observations from a re-analysis of the deposited data

How the results depend on the processing

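The number of late genes called was 0 under every setting run. Their adjusted p was lowest without BcorWT replicate 1, at 0.0723 for *Lcn2*. Among all genes, edgeR called 2. This became 5 with a minimum of 10 counts in each library, 14 with the replicate block, 4 with limma-voom and 43 with DESeq2. With 1 library fewer it was 6 without BcorΔE9-10 replicate 1, 34 without BcorΔE9-10 replicate 2, 596 without BcorWT replicate 1 and 30 without BcorWT replicate 2. The cause was not tested. In those fits the group with 1 library is assumed to vary like the other. Without BcorWT replicate 1, 3 other secondary and tertiary granule genes and 1 primary granule gene were called. The replicate numbers were used as a block in an alternative only, since same-numbered libraries had a correlation of -0.094 in their deviations. The replicate block changed no call of a late gene. In that edgeR fit 3 of the 10 had an unadjusted p under 0.05, beside 464 of 12067 genes.

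The median log2 fold change of the late genes lay between -0.97 and 0.43 on leaving out a library. The number whose groups did not overlap ran from 1 to 8, where 58.2 to 81.5% of all genes did not overlap. Single genes changed sign only when a library was left out, with ranges of -0.17 to 1.12 for *Camp*, -1.80 to 0.0378 for *Ngp*, -1.95 to 0.21 for *Lcn2*, -0.47 to 0.71 for *S100a8*, -1.03 to 0.52 for *S100a9*, -0.43 to 0.38 for *Fcnb*, -0.99 to 0.55 for *Lyz2*, -0.95 to 0.44 for *Cybb* and -0.40 to 0.70 for *Itgam*. *Ltf* stayed below 0, from -1.81 to -0.14. With 2 libraries a genotype, replicates differed by over 1 on the log2 scale for 9 of the 10 genes in BcorΔE9-10 and for 4 in BcorWT. The late genes had at least 371 counts in each library.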
